A study of Mus musculus with 6 samples.

Results

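The genes described here belong to 6 families of membrane carriers that move bicarbonate, protons, sodium, chloride, sulfate and calcium across kidney cells. Members were chosen by name alone: every gene symbol made of Slc4a, Slc8a, Slc9a, Slc12a, Slc24a or Slc26a and a number, without Slc4a1, Slc4a9, Slc26a4, Slc26a7, Slc12a1 and Slc12a3. That left 41 of 24346 genes. Some of them, such as those of the Slc12 family and Slc4a4, are cotransporters rather than exchangers. The libraries came from kidneys of mice that had lost 1 kidney by unilateral nephrectomy, in 2 groups of 3. One group drank water with 0.1% D-serine and the other drank the vehicle water, in both cases with a serine-free diet for 1 week before the operation, and both were killed 2 days after it. Sham-operated mice were not analysed here, and the labels give neither strain, sex nor age, nor whether every sample is a separate animal. The p-values therefore reflect how far these samples scatter, and that scatter may be technical.

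The kidney reabsorbs nearly all filtered bicarbonate, most of it in the proximal tubule. There the apical exchanger NHE3 (Slc9a3) secretes protons in return for sodium, and the cotransporter NBCe1 (Slc4a4) passes bicarbonate and sodium out across the basolateral membrane. Slc26 exchangers handle chloride, sulfate and oxalate, Slc12 cotransporters carry chloride with potassium or sodium and set cell volume, and the exchanger NCX1 (Slc8a1) returns calcium to the blood in the distal nephron. Each member's level is given in FPKM, the sequenced fragments of a gene scaled to the length of its transcripts and to the mapped fragments of the library. The lowest values gave a rough depth of 7210000 to 8630000 mapped fragments. At that depth a 2 kb transcript at 1 FPKM rests on some 14.4 to 17.3 fragments. Kidney identity was plain in the values: the proximal phosphate carrier Slc34a1 stood at 2026 to 2590 FPKM across all 6 libraries.

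Upstream sequence is shown for Slc9a3 and Slc4a4, the pair that carries bicarbonate reabsorption in the proximal tubule and whose D-serine libraries both lay below the vehicle libraries. RefSeq promoter windows (GRCm38.p6, the mm10 assembly) were at hand for 32 of the 41 members, in 42 windows. Only the 250 bases before the start are used, 5′ to 3′ on the gene's strand, and both windows shown lie outside annotated exons. Capitals mark the motif matches found in them, on either strand. The Slc9a3 window lies on chr13:74121163-74121412 (+ strand), and the Slc4a4 window on chr5:89027716-89027965 (+ strand), before the downstream of its 2 listed starts.
Slc9a3: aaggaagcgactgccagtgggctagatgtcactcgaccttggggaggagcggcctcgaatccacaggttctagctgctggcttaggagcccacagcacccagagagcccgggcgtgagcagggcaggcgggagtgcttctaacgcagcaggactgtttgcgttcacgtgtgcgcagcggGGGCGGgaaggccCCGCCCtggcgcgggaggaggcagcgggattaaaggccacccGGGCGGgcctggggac
Slc4a4: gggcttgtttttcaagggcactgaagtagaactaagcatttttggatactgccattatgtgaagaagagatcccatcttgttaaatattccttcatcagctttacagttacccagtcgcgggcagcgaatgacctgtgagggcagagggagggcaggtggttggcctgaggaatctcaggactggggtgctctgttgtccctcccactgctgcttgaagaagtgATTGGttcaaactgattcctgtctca
The Slc9a3 window held the GC box, GGGCGG, 3 times and no CCAAT box, and 67.6% of its bases were G or C. The Slc4a4 window held the CCAAT box, CCAAT, 1 time and no GC box, with 48.8% G or C. GGGCGG or its complement stood in 32.7% of all 32851 mouse windows of this length, and CCAAT in 33.8%. The other motifs searched were TATAAA, in 12.4% of windows, and AGAACA, a half-site of androgen and glucocorticoid receptors, in 16.1%. Neither was found in the 2 windows shown. The window before the upstream start of Slc4a4 overlaps an annotated exon and is not shown. The FPKM of Slc4a4 sums over both starts, so the values below do not tell which start was used.

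Of the 41 members, 18 averaged at least 1 FPKM over the 6 libraries and were tested. The other 23 were below that level, and 5 of these (Slc24a1, Slc24a2, Slc24a4, Slc26a3 and Slc26a5) were listed at 0 in all 6 libraries. D-serine and vehicle were compared with limma on log2(FPKM + 1), a scale that understates differences of low genes, over 11737 genes with Benjamini-Hochberg adjustment. At an adjusted p of 0.05 limma called 0 of the 18 members, where it called 0.0767% of all tested genes (9 genes). At an adjusted p under 0.1 there were 7 members, against 11.2% of all tested genes. The same 7 had an unadjusted p under 0.05, against 27.7% of all tested genes. Of these, 6 were lower with D-serine, among them Slc9a2, Slc9a3, Slc4a4 and Slc12a2, where 14.6% of all genes were, and 1 was higher (Slc4a3), where 13.1% were. The D-serine libraries lay wholly below the vehicle libraries for 7 tested members, against 19.4% of all tested genes, and wholly above for 2, against 16.5%. That made 9 of 18 with separate groups, against 35.8% of all tested genes. With 1 library left out the count ran from 9 to 15, as fewer libraries can overlap. The 15 came without D-serine replicate 3, where 50.5% of all tested genes had separate groups. Leaving out any other library gave 9 or 11. The share of all genes was not computed there, so those counts cannot be compared with all genes. The log2 difference was below 0 for 10 of the 18 and above 0 for 8, against 51.1% and 48.9% of all tested genes. Its median was -0.17 over the 18 members and -0.0078 over all tested genes, and -0.11 over the members without vehicle replicate 1. With no minimum the median was 0.033 over 36 members, and with a minimum of 5 FPKM it was -0.41 over 14. The summed level of all 41 members was 277, 254 and 284 FPKM with D-serine and 361, 328 and 322 FPKM with vehicle. The sums did not overlap, and an exact two-sided permutation test gave p = 0.1, the smallest that 3 against 3 allows. Sums that do not overlap always give that value, so the test adds nothing. Such a sum follows its most abundant members and does not show a shift across the list. Slc4a4 alone had means of 51.6 FPKM with D-serine and 88.4 FPKM with vehicle. Which members passed the filter depends on their level in either group, so these counts describe the 18 and not the families.

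**Figure D1:**
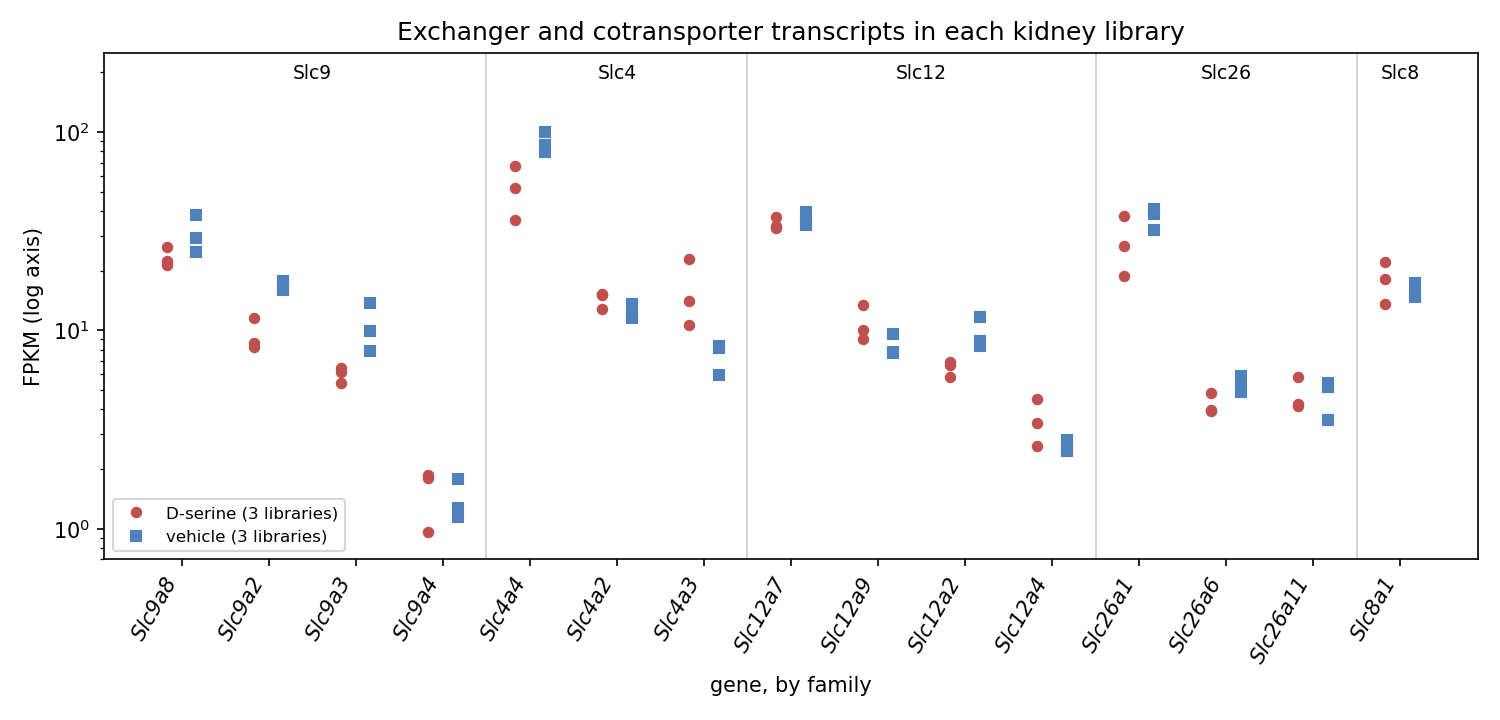
FPKM on a log axis of 15 tested members in each of 3 D-serine libraries (circles) and 3 vehicle libraries (squares), grouped by family. Slc4a4 is the highest member, at 35.8 to 67.2 FPKM with D-serine and 79.3 to 100.1 FPKM with vehicle, and Slc9a4 the lowest.

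The cell make-up of the tissue bears on every value, because fewer cells of a type and less RNA per cell cannot be told apart in bulk RNA. Markers of proximal tubule segments S1 and S2 were lower with D-serine for 6 of 6 genes, and their summed level was 2600 to 2971 FPKM with D-serine and 2977 to 3382 FPKM with vehicle, most of it from Slc34a1. Separate groups were seen for 1 of the 6, Slc22a6, while Slc34a1 overlapped (2026 to 2277 FPKM with D-serine, 2206 to 2590 FPKM with vehicle). For comparison, 19.4% of all tested genes lay wholly below with D-serine and 16.5% wholly above. In vehicle replicate 2, Slc5a2 (11.1 FPKM) and Slc5a12 (8.99 FPKM) lay under every D-serine library. For segment S3, 4 of 5 markers were lower, with sums of 319 to 493 FPKM with D-serine and 604 to 763 FPKM with vehicle. Only 1 of these 5 had separate groups, Slc7a13, and without it the S3 sums overlapped (196 to 282 FPKM with D-serine, 246 to 284 FPKM with vehicle). Markers of the distal convoluted tubule were higher for 4 of 4 genes (746 to 874 FPKM with D-serine, 563 to 734 FPKM with vehicle). Only 2 of these 4 had separate groups, Pvalb and Calb1. Slc12a3 differed little and overlapped (306 to 448 FPKM with D-serine, 313 to 362 FPKM with vehicle). Principal cell markers were higher for 5 of 5 (416 to 634 FPKM with D-serine, 280 to 381 FPKM with vehicle). Separate groups were seen for 3 of them, while Aqp3 and Fxyd4 overlapped. Markers of alpha intercalated cells were higher for 4 of 4 tested of 5 listed, and those of beta intercalated cells for 4 of 4. Thick ascending limb markers were lower for 3 of 5, with overlapping sums. Fibroblast, pericyte and smooth muscle markers were higher for 4 of 4 (18.9 to 39.3 FPKM with D-serine, 12.5 to 16.5 FPKM with vehicle). Cell division genes were higher for 3 of 3 (13.01 to 46.9 FPKM with D-serine, 2.87 to 4.11 FPKM with vehicle). Hemoglobin and other red cell markers summed to 6.45 to 13.2 FPKM with D-serine and 3.23 to 150.1 FPKM with vehicle, highest in vehicle replicate 1. No marker of these lists was at 0 in all 6 libraries. The part of cell make-up in the differences below was not tested.

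The sodium-proton exchangers of the Slc9 family were the largest tested family, with 6 of 9 members measured above the minimum. They differ in where they work: at the apical membrane of tubules (Slc9a2, Slc9a3 and Slc9a8) or at the basolateral membrane (Slc9a4), for example. Slc9a2, which encodes NHE2 of distal tubule apical membranes, was at 11.5, 8.67 and 8.22 FPKM with D-serine, against 16.7, 17.8 and 16.0 FPKM with vehicle. All 3 D-serine libraries lay below all vehicle libraries, and the means were 9.46 ± 1.77 and 16.8 ± 0.904 FPKM (SD, n = 3 each). Its log2 difference was -0.78 ± 0.13 (SE, limma adjusted p = 0.058). Limma called Slc9a2 at 0.05 in 5 of 18 alternative settings, among them pseudocounts of 0.1 and 0.01. Those 5 settings called 132 to 357 of all the genes they tested, against 9 in the main fit. Slc9a2 lies on chromosome 1 (40680574 to 40769273, mm10), and its neighbour at 40580081 to 40630725 is another member, Slc9a4.

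Slc9a3, the main apical exchanger of the proximal tubule and thick limb, was at 5.40, 6.44 and 6.15 FPKM with D-serine and at 13.8, 7.88 and 9.92 FPKM with vehicle. The groups did not overlap, and vehicle replicate 1 stood apart at the top. The log2 difference of Slc9a3 was -0.69 ± 0.18 (limma adjusted p = 0.085), and -0.50 without vehicle replicate 1. Slc9a8, found at the proximal brush border and in the Golgi, was the highest member of the family, at 22.3, 21.3 and 26.3 FPKM with D-serine and at 38.0, 29.3 and 24.8 FPKM with vehicle. Its groups overlapped, since D-serine replicate 3 exceeded vehicle replicate 3 (log2 difference -0.37 ± 0.17, limma adjusted p = 0.20, and -0.21 without vehicle replicate 1).

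Slc9a4, a basolateral exchanger known from stomach and thick ascending limb, was at 1.80, 1.86 and 0.963 FPKM with D-serine and at 1.14, 1.78 and 1.27 FPKM with vehicle, with overlapping groups. The summed level of the 9 Slc9 members was 59.4, 56.1 and 57.1 FPKM with D-serine and 88.5, 75.9 and 69.7 FPKM with vehicle. The share of Slc9a3 in that sum was 9.09, 11.5 and 10.8% with D-serine and 15.6, 10.4 and 14.2% with vehicle, which overlap.

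**Figure D2:**
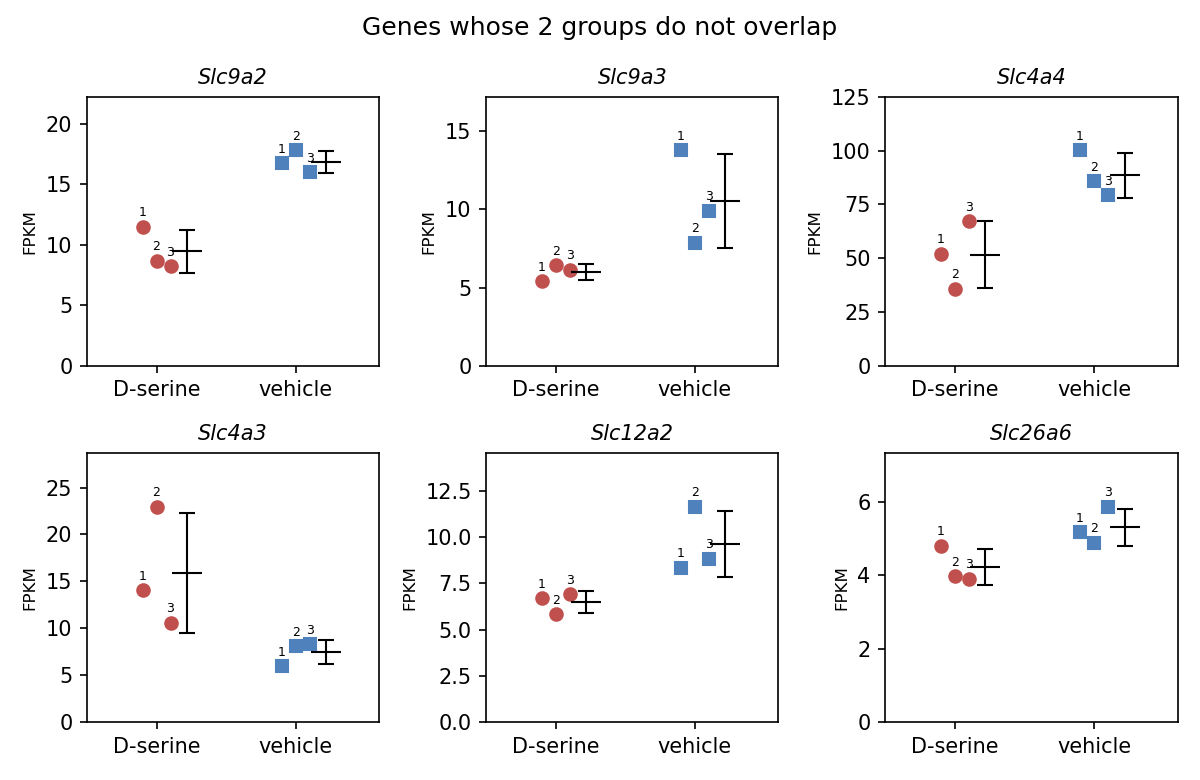
FPKM of 6 tested members whose groups do not overlap, each on a linear axis that starts at 0, with the replicate number above each point and the mean ± SD as bars to the right. The D-serine libraries of Slc9a2 lie within 8.22 to 11.5 FPKM and its vehicle libraries within 16.0 to 17.8 FPKM, while the points of Slc4a3 and Slc4a4 spread widely with D-serine.

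Among the bicarbonate carriers of the Slc4 family, 3 of 8 members were tested, and Slc4a4 and Slc4a3 differed in opposite directions. Slc4a4 (chromosome 5, 88886818 to 89239653) was the highest of all 41 members, at 52.0, 35.8 and 67.2 FPKM with D-serine and at 100.1, 85.9 and 79.3 FPKM with vehicle. The D-serine libraries were all lower and differed more among themselves than the vehicle libraries did, with replicate 2 at the bottom. The means were 51.6 ± 15.7 and 88.4 ± 10.6 FPKM (SD, n = 3 each), and the log2 difference was -0.80 ± 0.22 (limma adjusted p = 0.090). Without D-serine replicate 3, the highest of its group, limma called Slc4a4 (log2 difference -1.01, adjusted p = 0.048, with a range of 0.048 to 0.28 over 18 alternative settings). That fit called 437 of all tested genes, against 9 with all 6 libraries. Without D-serine replicate 2 the difference of Slc4a4 was -0.57, and limma did not call it (adjusted p = 0.14).

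Slc4a3, the chloride-bicarbonate exchanger AE3 known mainly from heart and brain, lies on chromosome 1 (75546266 to 75562172). It was at 14.03, 23.0 and 10.6 FPKM with D-serine, against 5.95, 8.10 and 8.32 FPKM with vehicle. All D-serine libraries were higher, and replicate 2 was the highest, in the library that was lowest for Slc4a4. The log2 difference was 0.94 ± 0.26 (limma adjusted p = 0.091), and 0.66 without D-serine replicate 2. Slc4a2, the basolateral exchanger AE2 of many epithelia, was at 15.2, 15.1 and 12.9 FPKM with D-serine and at 11.9, 13.5 and 11.5 FPKM with vehicle. Its groups overlapped, with a log2 difference of 0.21 ± 0.11 (limma adjusted p = 0.24), or 0.13 with a length and GC trend removed. Exons of Slc4a2 share 1141 of their 8322 annotated bases (13.7%) with Fastk on the opposite strand. Fastk was at 64.9, 94.0 and 67.1 FPKM with D-serine and at 54.6, 50.04 and 64.4 FPKM with vehicle. The sources used here do not give the strand setting of the quantification, so the value of Slc4a2 is uncertain.

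Because FPKM is per length, levels of different members can be set side by side. Slc4a4 made up 62.2, 46.9 and 72.4% of the summed FPKM of the 8 Slc4 members with D-serine, against 83.1, 78.2 and 78.4% with vehicle. Slc4a3 made up 16.8, 30.1 and 11.4% with D-serine, against 4.94, 7.38 and 8.23% with vehicle. The shares of both genes were separate between the groups, as their levels already were, so the shares add no separate result. An exact two-sided permutation test of each gave p = 0.1, the smallest that 3 against 3 can give. Separate groups always give that value, so the test adds nothing. The share of Slc4a2, whose levels overlapped, was separate too (13.9 to 19.7% with D-serine, 9.87 to 12.3% with vehicle). All these shares depend on each other, as Slc4a4 dominates the sum of the 8 members. That sum leaves out Slc4a9 and Slc4a1, so the shares are not those of the whole family. Slc4a9 was at 65.3, 104.4 and 65.5 FPKM with D-serine and at 47.0, 51.5 and 58.6 FPKM with vehicle. Slc4a1 was at 18.6, 14.6 and 12.2 FPKM with D-serine and at 10.7, 9.28 and 9.76 FPKM with vehicle.

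**Figure D3:**
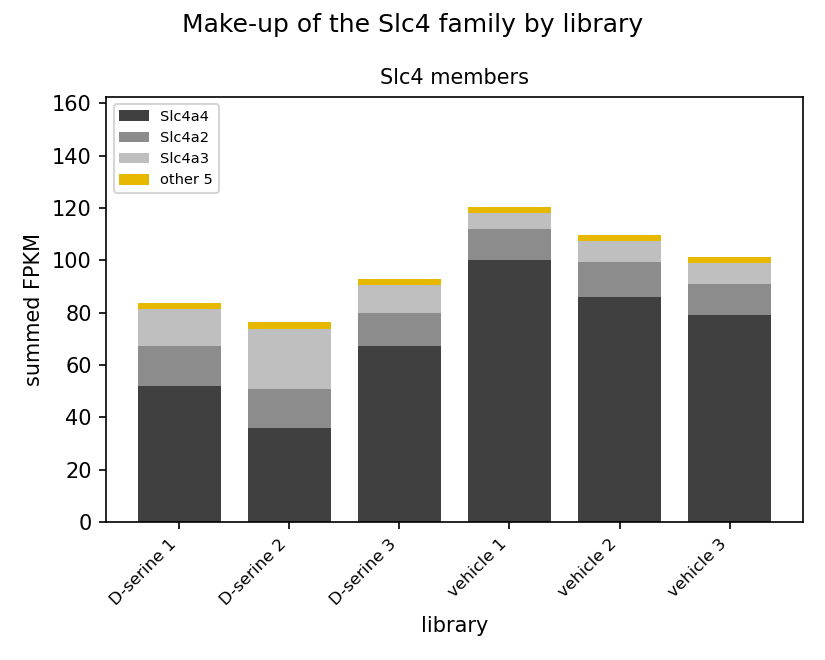
Summed FPKM by library of the 8 Slc4 members, without Slc4a1 and Slc4a9, with each gene's part stacked from 0. D-serine libraries stand left and vehicle libraries right. The Slc4a4 part is smaller in each D-serine library (35.8 to 67.2 FPKM) than in each vehicle library (79.3 to 100.1 FPKM).

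Of the cation-chloride cotransporters of the Slc12 family, 5 of 7 members were tested. The summed level of the 7 was 74.5, 74.2 and 71.4 FPKM with D-serine and 84.4, 82.5 and 83.4 FPKM with vehicle. The sums were separate, for which an exact two-sided permutation test of 3 against 3 always gives p = 0.1. Of the 5 tested members, 3 were lower and 2 higher, so the sum does not show a shift across the family. Slc12a7, encoding the potassium-chloride cotransporter KCC4 of proximal and intercalated cells, was the second highest member at 37.5, 32.9 and 33.7 FPKM with D-serine and 39.3, 34.0 and 36.2 FPKM with vehicle. Its groups overlapped, and the log2 difference of -0.071 had a 95% interval of -0.30 to 0.16 (limma adjusted p = 0.66). With 1 library left out the difference of Slc12a7 ran from -0.13 without D-serine replicate 1 (-0.12 without vehicle replicate 2) to -0.017 without vehicle replicate 1 (-0.035 without D-serine replicate 2). Slc12a4, the widely expressed KCC1, ranged from 2.62 to 4.52 FPKM with D-serine and from 2.46 to 2.79 FPKM with vehicle.

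Slc12a2, the sodium-potassium-chloride cotransporter NKCC1 that loads chloride into cells from the basolateral side, was at 6.71, 5.82 and 6.92 FPKM with D-serine and at 8.34, 11.7 and 8.83 FPKM with vehicle. Every D-serine library was lower, and the log2 difference was -0.49 ± 0.14 (limma adjusted p = 0.095), or -0.36 without vehicle replicate 2. Slc12a9, a relative whose transport role is less settled, was at 9.08, 13.4 and 10.1 FPKM with D-serine and at 7.80, 7.71 and 9.63 FPKM with vehicle. The groups overlapped, as D-serine replicate 1 lay below vehicle replicate 3 (log2 difference 0.33 ± 0.16, limma adjusted p = 0.21). The difference of Slc12a9 was 0.18 without D-serine replicate 2 and 0.19 with a length and GC trend removed.

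**Figure D4:**
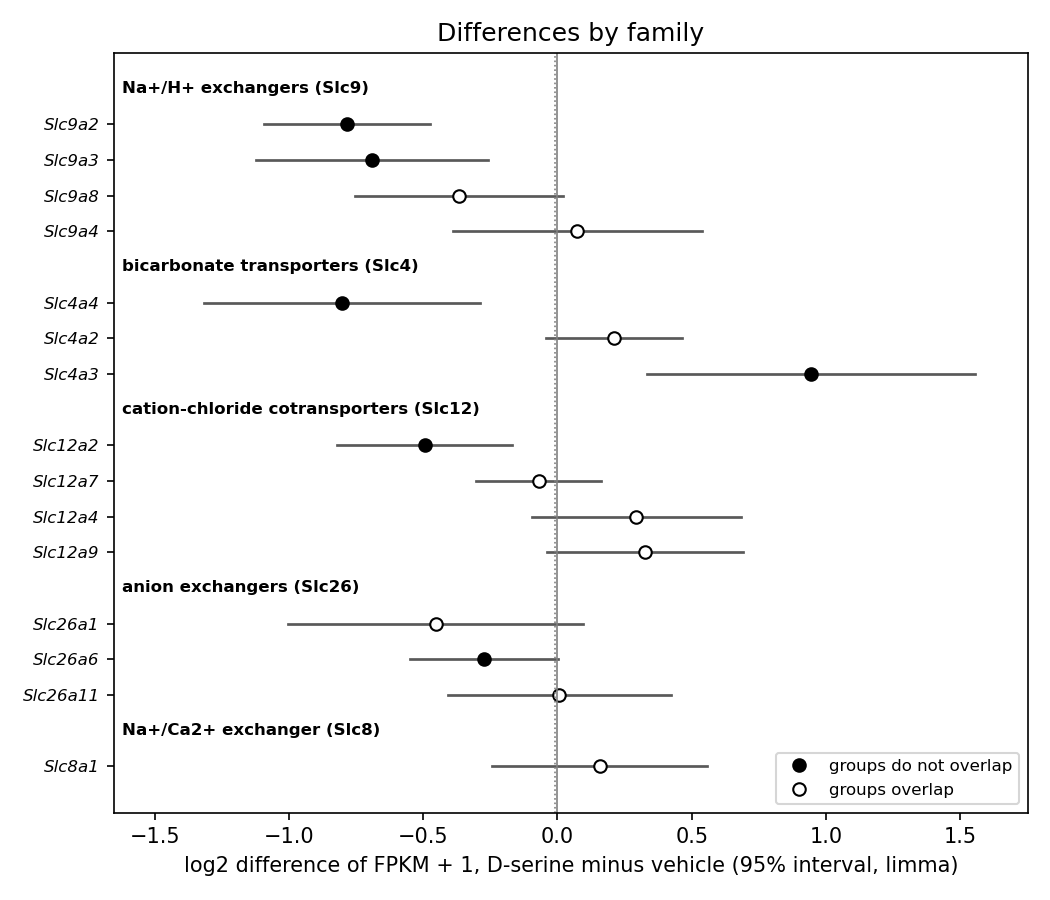
Log2 difference of FPKM + 1, D-serine minus vehicle, for 15 tested members by family, with 95% intervals from limma; filled points mark members whose groups do not overlap, and the dotted line is the median of all tested genes. Points run from -0.80 for Slc4a4 to 0.94 for Slc4a3, and no member passed an adjusted p of 0.05.

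In the Slc26 anion exchangers, 3 of 9 members were tested. Slc26a1, the basolateral sulfate and oxalate exchanger Sat1 of the proximal tubule, was at 26.7, 18.8 and 37.8 FPKM with D-serine and at 40.7, 32.1 and 38.6 FPKM with vehicle. The groups overlapped, with D-serine replicate 3 at the vehicle level and replicate 2 far below. The log2 difference was -0.45 ± 0.23 (limma adjusted p = 0.24), and it was -0.21 without D-serine replicate 2 and -0.70 without D-serine replicate 3. Slc26a1 shares 141 of 4050 exon bases (3.48%) with Idua on the opposite strand. Slc26a6, the apical exchanger of chloride for oxalate, formate and bicarbonate, was at 4.81, 3.97 and 3.91 FPKM with D-serine, against 5.17, 4.89 and 5.87 FPKM with vehicle. Its groups were separate by a narrow gap (log2 difference -0.27 ± 0.12, limma adjusted p = 0.18). Slc26a11, a sulfate and chloride carrier, had similar means of 4.73 ± 0.928 FPKM with D-serine and 4.72 ± 1.04 FPKM with vehicle (SD, n = 3 each), and the 95% interval of its log2 difference was -0.41 to 0.42.

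Of the sodium-calcium exchangers, Slc8a1 was the 1 member with a level above the minimum. NCX1, its product, extrudes calcium across the basolateral membrane of the distal convoluted and connecting tubule. Slc8a1 was at 22.1, 18.2 and 13.6 FPKM with D-serine and at 14.8, 17.3 and 15.1 FPKM with vehicle. The D-serine libraries lay on both sides of the vehicle range, with a log2 difference of 0.16 and a 95% interval of -0.24 to 0.56 (limma adjusted p = 0.57). It was 0.0021 without D-serine replicate 1 and 0.33 without D-serine replicate 3, so either library decided its size, and 0.36 with a length and GC trend removed. Slc8a2 and Slc8a3, known from brain and muscle, stayed at or under 0.149 FPKM in each library. The potassium-dependent sodium-calcium exchangers of the Slc24 family, known from retina, brain and pigment cells, had low listed values: Slc24a5 reached 0.799 FPKM, Slc24a3 reached 0.146 FPKM, and the other 3 were listed at 0. Exons of Slc24a5 share 39.5% of their bases with Myef2 on the opposite strand, so its value is uncertain.

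Of the 18 members below the minimum but above 0 in some library, 2 had D-serine libraries under every vehicle library and 2 above. Of all 5701 such genes, 2.53% lay wholly below and 10.5% wholly above. Slc26a2, a sulfate carrier needed for cartilage matrix, lay just under the minimum, with 0.746, 0.623 and 0.394 FPKM with D-serine and 1.10, 1.12 and 1.16 FPKM with vehicle. Slc4a7, the electroneutral sodium-bicarbonate cotransporter NBCn1 of the thick limb, was at 0.594, 0.617 and 0.685 FPKM with D-serine, against 1.05, 1.05 and 0.850 FPKM with vehicle. Slc9a7, a Golgi exchanger, had all D-serine libraries higher (0.472, 0.504 and 0.265 FPKM) than vehicle (0.234, 0.0981 and 0.208 FPKM), and so had the bicarbonate cotransporter gene Slc4a5 (0.193, 0.361 and 0.171 FPKM with D-serine, 0.0646, 0.158 and 0.119 FPKM with vehicle). With no minimum, limma gave adjusted p-values of 0.13 for Slc26a2, 0.15 for Slc4a7, 0.17 for Slc9a7 and 0.28 for Slc4a5 over 17438 genes. The sodium-driven exchanger gene Slc4a8 was at 0.746 to 1.13 FPKM with D-serine and 0.598 to 0.824 FPKM with vehicle, and the neuronal cotransporter gene Slc12a5 at 0.537 to 0.816 FPKM and 0.364 to 0.565 FPKM. Both overlapped. Slc4a10, Slc4a11, Slc9a5, Slc9a9, Slc12a8, Slc26a8, Slc26a9 and Slc26a10 had overlapping groups as well and reached at most 0.631 FPKM in any library. At these levels few fragments stand behind a value, by the rough depth and the longest transcript of each gene. In the shallowest library, D-serine replicate 2, Slc4a7 rested on about 36.2 fragments and Slc26a2 on about 35.1. Slc4a5 rested on only about 13.3 there and Slc9a7 on about 9.13.

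Partners and regulators of these carriers were read from a list of 40 genes. Of these, 37 were tested, of which 20 were higher and 17 lower in the D-serine libraries. Their median log2 difference was 0.029. Limma called 0 of them at an adjusted p of 0.05, while 8 of the 37, higher with D-serine, and 7, lower, had an unadjusted p under 0.05, against 13.1% higher and 14.6% lower of all tested genes. S100g, encoding calbindin-D9k, which ferries calcium through distal tubule cells, was at 5061, 6268 and 3676 FPKM with D-serine and at 1528, 2298 and 2469 FPKM with vehicle (log2 difference 1.249 ± 0.24, limma adjusted p = 0.063). Calb1, encoding calbindin-D28k, was at 391, 273 and 315 FPKM with D-serine and at 163, 262 and 192 FPKM with vehicle, and Pvalb, encoding parvalbumin of the distal convoluted tubule, at 133, 144 and 113 FPKM with D-serine and 82.1, 104 and 91.7 FPKM with vehicle. All 3 genes had separate groups, but they were named for their small p, so this is no added result. Of the 37 tested, 9 lay wholly above and 7 wholly below, against 16.5% and 19.4% of all tested genes. Pvalb and Calb1 are also markers in the list of the distal convoluted tubule given above. Chp1, an obligatory partner of the plasma membrane sodium-proton exchangers, was at 50.9, 63.6 and 67.0 FPKM with D-serine, against 82.6, 99.1 and 76.4 FPKM with vehicle (log2 difference -0.50 ± 0.14, limma adjusted p = 0.095). Car15, a membrane-bound carbonic anhydrase, was at 224, 277 and 164 FPKM with D-serine and at 129, 143 and 138 FPKM with vehicle (limma adjusted p = 0.090). Cul3, the ubiquitin ligase scaffold that controls the WNK kinases, was at 41.2, 32.5 and 42.1 FPKM with D-serine and at 55.5, 53.5 and 48.1 FPKM with vehicle (limma adjusted p = 0.095).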

How the data were processed

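Kidney messenger RNA was measured in 6 libraries, 3 per group, and per the labels' protocols the libraries were stranded (TruSeq). What the authors deposited is an FPKM value per gene for each library. TopHat2 2.0.13, Bowtie2 2.2.3, SAMtools 0.1.19 and Cufflinks 2.2.1 with mm10 are named in the submitters' processing notes. Which annotation and strand setting they ran with was not stated in the sources used here. A few very abundant genes press on the FPKM of all others, and an exact 0 can be a failed estimate, so it is reported as listed at 0.

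The test took genes averaging 1 FPKM or more over the 6 libraries and was run with limma 3.58.1 in R 4.3.3 (trend, two-sided) on log2(FPKM + 1), without the replicate number as a block. The script was tested on simulated data. Depth was estimated from the spacing of the lowest values and the lengths of genes with 1 transcript, and no counting interval was computed from it. Positions came from GENCODE M21 (mm10), with all 41 members matched, and promoter windows from RefSeq. The rule for values per library took the 10 members with the smallest p, the 8 with the highest level and 8 fixed genes, and of the related list the 6 with the smallest p. Slc9a4 and the low members were given values beyond that rule. Some members are counted but not reported here. The members and lists were chosen with earlier results of these data known. The 18 alternatives changed the pseudocount, minimum, scaling, test, features tested, a length and GC trend, or left out 1 library.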

Additional observations from a re-analysis of the deposited data

How the results depend on the processing

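Of the 18 members, 16 kept the sign of their log2 difference under every alternative run. The exceptions were Slc26a11 and Slc9a4. Slc26a11 turned from 0.0068 to -0.010 with quantile normalization, -0.0040 with a fixed sum over all but the 50 most abundant genes and -0.027 with a length and GC trend removed, and ran from -0.15 to 0.10 when 1 library was left out. Slc9a4 turned from 0.073 to -0.051 with quantile normalization and ran from -0.021 to 0.25 when 1 library was left out. The cause was not tested.

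The count of 0 called members moved to 2, Slc9a2 among them, with a pseudocount of 0.1 or 0.01, a minimum of 5 FPKM, weighted libraries, or small RNA and predicted genes left out, and to 1 with a fixed sum. It was 0 to 2 when 1 library was left out, with 2, Slc4a4 among them, without D-serine replicate 3. The 9 genes called among all tested moved to 171 and 221 with a pseudocount of 0.1 and 0.01, 132 with a minimum of 5 FPKM, 15 with median-of-ratios scaling, 81 with a fixed sum, 269 with weighted libraries and 357 without small RNA and predicted genes, and to 2 to 437 when 1 library was left out. They were 437, 24 and 10 without D-serine replicate 3, 1 and 2, and 4, 3 and 2 without vehicle replicate 1, 2 and 3. Members with separate groups numbered 9 to 15 when 1 library was left out, where fewer libraries can overlap. The 15 came without D-serine replicate 3, where 50.5% of all tested genes had separate groups. The members' median was 0.033 with no minimum (36 members), -0.41 with a minimum of 5 FPKM (14 members) and -0.24 to -0.11 when 1 library was left out. With the replicate number as a block, 2 genes and 0 members were called. Deviations of same-numbered libraries correlated at -0.070, 0.0031 and 0.067, which gave no sign of pairing by number. With so few libraries they cannot tell whether samples were paired, and the labels do not say. Depth limits the members under 1 FPKM most.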
